A study of Homo sapiens with 2 samples.

Results

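The genes described here are NRF2 and a set of its antioxidant targets: *NFE2L2*, which encodes the transcription factor NRF2, *KEAP1*, which encodes its repressor, and the target genes *NQO1*, *HMOX1*, *GCLC*, *GCLM*, *TXNRD1*, *SRXN1* and *TRIM16*. They were found by their gene symbols, and all 9 were present among the 60612 genes listed for each library. Of these, 8 reached 1 FPKM in at least 1 library, as did 12520 genes in all, and *HMOX1* did not. FPKM counts sequenced fragments per length of gene and per size of library.

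RNA of L3.6 cells, an established human line of pancreatic ductal adenocarcinoma (PDAC), was sequenced in 2 libraries. The shCtrl library came from cells with a non-targeting shRNA, which the labels enter as having had no treatment, and the shESE1 library from cells with an shRNA against ESE1, an ETS-family transcription factor of epithelia encoded by *ELF3*. By the study's methods, both shRNAs were delivered by a pLKO lentiviral vector and cells were kept under puromycin selection. The resistant clones were used as a pool, and which of the designed shRNAs the sequenced cells carried is not given in the sources used here.

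In most cells KEAP1 is a sensor that holds NRF2 and, as the adaptor of a CUL3 and RBX1 ubiquitin ligase, sends it for degradation. Oxidants and electrophiles modify cysteines of KEAP1, NRF2 then accumulates, pairs with a small MAF protein and binds antioxidant response elements in the promoters of genes for glutathione synthesis, thioredoxin reduction, quinone reduction and heme breakdown, while BACH1 occupies the same elements as a repressor. NRF2 activity is set largely by the amount of protein, which mRNA levels do not measure.

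Each condition had 1 library, so no difference below has a replicate check and no p-value is given. The shCtrl library held 56853971 counts and the shESE1 library 60786475, and genes of the mitochondrial genome took 12.4% and 3.79% of them. The targeted gene *ELF3* (ENSG00000163435) had 9869 counts and 20.4 FPKM in shCtrl against 5624 counts and 10.7 FPKM in shESE1, 1.91-fold lower. All 7 epithelial and ductal markers reached 1 FPKM, with a summed level of 1504 FPKM in shCtrl and 1823 FPKM in shESE1. The keratins *KRT7*, *KRT8*, *KRT18* and *KRT19* were higher in shESE1, *CDH1* was lower at 6.95 FPKM against 16.3, *MUC1* at 2.48 against 5.41 and *EPCAM* at 110 against 117. All 5 acinar and endocrine markers had 0 counts in both libraries. Among 13 markers of blood, endothelium, fibroblasts and immune cells, *CD68*, *COL1A1* and *CDH5* reached 1 FPKM, the highest being *CD68* at 3.70 FPKM in shCtrl and 7.94 FPKM in shESE1, and the leukocyte markers *PTPRC*, *CD3E* and *CD14* had 0 counts. In a bulk sample, fewer cells with a transcript and less of the transcript per cell cannot be told apart.

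Changes are given as log2((shESE1 FPKM + 1)/(shCtrl FPKM + 1)), with 1 FPKM added to limit the weight of low values, and a gene is called higher or lower at 2-fold or more on this scale. Intervals are 95% exact (Clopper-Pearson) intervals of the count ratio, put on the FPKM scale without the added 1, so the point value can lie outside them. They cover counting error only, and reads amplified by PCR are not independent molecules.

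Of the 8 genes compared, *NFE2L2* and *TRIM16* were at least 2-fold higher in shESE1 and 0 were at least 2-fold lower. The shares among all 12520 compared genes were 3.14% at least 2-fold higher, 3.26% at least 2-fold lower and 6.4% in either direction. The 8 genes had a median log2 change of 0.52, against 0.02 over all compared genes. With at least 5 FPKM required, the medians were 0.54 over 6 of these genes and 0.15 over all 6764 genes kept. They formed 3 sets by size of change: *NFE2L2* and *TRIM16* past 2-fold, *KEAP1*, *TXNRD1* and *SRXN1* with log2 changes of 0.50 to 0.55, and *NQO1*, *GCLC* and *GCLM* with log2 changes of -0.14 to 0.07.

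**Figure D1:**
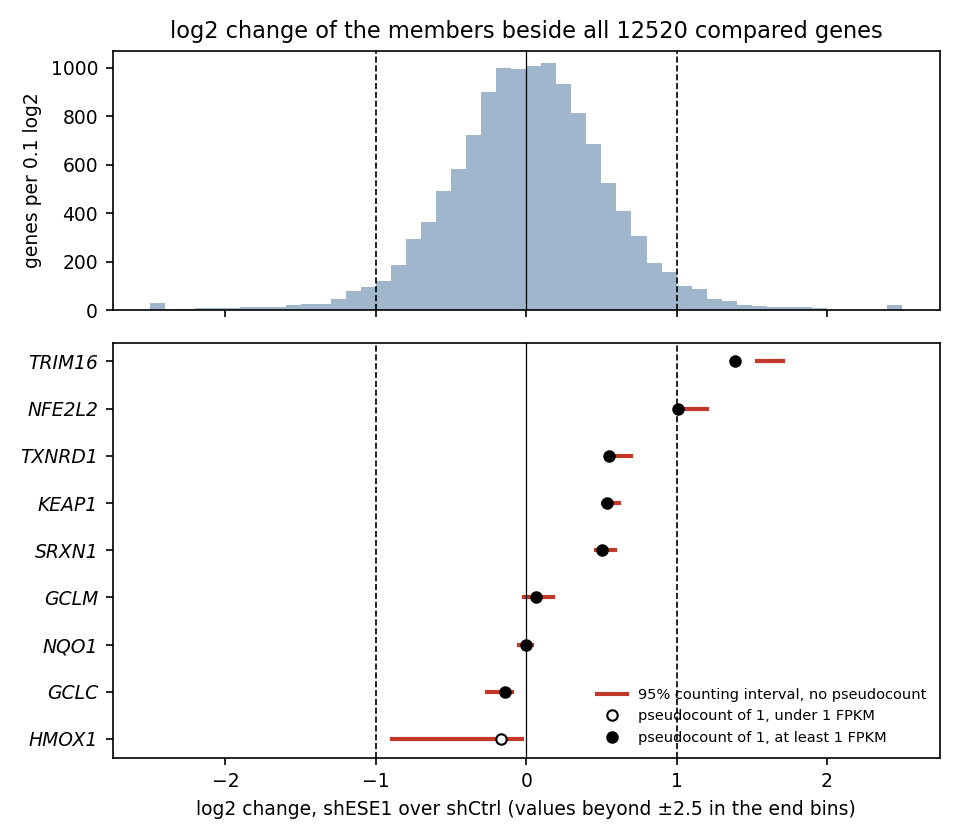
Upper panel: number of genes per 0.1 log2 of change for the 12520 compared genes, with values beyond 2.5 placed in the end bins. Lower panel: the log2 change of the 9 genes, shESE1 over shCtrl, with 1 FPKM added (points) and the 95% counting interval without it (bars), where dashed lines mark 2-fold. *TRIM16* and *NFE2L2* sit at or past the upper dashed line, and *HMOX1*, drawn open, was under 1 FPKM in both libraries.

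*NFE2L2* (ENSG00000116044, chromosome 2, 177227595 to 177287777, minus strand, GRCh38) had 2214 counts in shCtrl and 5279 in shESE1, or 5.79 and 12.7 FPKM. The level of the NRF2 transcript was thus 2.19-fold higher in the shESE1 library, a log2 change of 1.01 with an interval of 1.06 to 1.20, and 3.00% of the compared genes had a higher change. In shCtrl 53.3% of the genes expressed there lay below it in FPKM, and in shESE1 72.3% did. The change lies near the 2-fold line: it was 0.96 after rescaling by the median ratio of expressed genes, 0.90 with the mitochondrial genes left out of the totals, and 0.97 when its counts were summed with those of *AC019080*, a noncoding gene on the same strand that shares 4.19% of its sequence and had 91 counts in shCtrl and 20 in shESE1.

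*KEAP1* (ENSG00000079999, chromosome 19, 10486125 to 10503356, minus strand) was expressed at 19.4 FPKM in shCtrl and 28.6 FPKM in shESE1, from 4669 and 7509 counts. The repressor was therefore 1.48-fold higher in shESE1 and did not reach 2-fold (log2 change 0.54, interval 0.51 to 0.61). The ratio of *NFE2L2* to *KEAP1* transcript within a library does not depend on how each library is scaled as a whole. It was 0.298 in shCtrl and 0.443 in shESE1, 1.48-fold higher, with an interval of the log2 change of 0.48 to 0.66.

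For the target genes the letters of the element that NRF2 and small MAF proteins bind were looked up in RefSeq promoter windows (GRCh38.p14), which run from 250 bases before to 50 bases after an annotated start. Windows were found for 8 of the 9 genes, 11 windows in all, and not for *HMOX1*. The core of the antioxidant response element, searched as TGACNNNGC on both strands, was present in windows of *GCLM*, *KEAP1* and *TXNRD1*, 3 of the 8 genes, and in 16.1% of all 27305 genes with a window, or 13.3% of all 35116 windows. The 6 matches are shown because the windows of the other members looked up held none. Capitals mark the matched core, each line reads 5′ to 3′ on the strand of the gene, and a core on the opposite strand appears as its reverse complement, starting with GC and ending with GTCA. Distances are from the first base of the core to the annotated start of that window. For *KEAP1* this start lies inside the gene, downstream of its first base at 10503356.
*GCLM*, chr1:93909445-93909474, minus strand, 34 bases before the start: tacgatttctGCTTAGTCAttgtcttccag
*KEAP1*, chr19:10502783-10502812, minus strand, 31 bases before the start: gcccggctctGCTTAGTCAtggtgacctgc
*KEAP1*, chr19:10502806-10502835, minus strand, 54 bases before the start: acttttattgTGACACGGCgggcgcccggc
*TXNRD1*, chr12:104215670-104215699, plus strand, 99 bases before the start: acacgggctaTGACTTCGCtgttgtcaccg
*TXNRD1*, chr12:104215761-104215790, plus strand, 8 bases before the start: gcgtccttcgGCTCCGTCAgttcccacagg
*TXNRD1*, chr12:104286920-104286949, plus strand, 102 bases before a second start: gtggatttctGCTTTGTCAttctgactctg

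*GCLM* and *KEAP1* carried the same 9 letters, GCTTAGTCA, at nearly the same distance from an annotated start. Both *KEAP1* matches lay in its window at 10502722 to 10503021. Its other window, at 10503307 to 10503606 around the first base of the gene, held 0 matches. Of the 3 genes with a match, *TXNRD1* and *KEAP1* had log2 changes of 0.55 and 0.54 and *GCLM* of 0.07, so genes with a match did not share a size of change. The windows of *NFE2L2*, *NQO1*, *GCLC*, *SRXN1* and *TRIM16* held no match, which says only that these letters are not in these windows. A match is a description of the sequence and not a measured binding site.

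The core letters of ETS-family sites, CGGAAG on both strands, were searched because ESE1 is an ETS factor. Among the 8 genes with a window they were found in those of *NFE2L2*, with 1 match in each of its 2 windows, and they occurred in 22.6% of all genes with a window. Both *NFE2L2* windows lie inside the gene, downstream of its first base at 177287777. In the lines below, capitals mark the core, which reads CTTCCG where it lies on the opposite strand.
*NFE2L2*, chr2:177264815-177264844, minus strand, 107 bases before one start: gggggattttCGGAAGctcagcccgcgcgg
*NFE2L2*, chr2:177264108-177264137, minus strand, 4 bases after another start: cggcccggccCTTCCGgggctgcgcggctc

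*TRIM16* (ENSG00000221926, chromosome 17, 15627960 to 15684311, minus strand), a tripartite-motif ubiquitin ligase, had the largest log2 change of the 9 genes. It had 1346 counts and 3.52 FPKM in shCtrl against 4488 counts and 10.8 FPKM in shESE1, 3.08-fold higher (log2 change 1.39, interval 1.53 to 1.71), and 0.982% of the compared genes had a higher change. Its rank moved from above 36.9% of the expressed genes in shCtrl to above 68.7% in shESE1. The value is uncertain because 39.3% of its 100-base words are shared with *AC005324* (ENSG00000251537), which had 0 counts in both libraries, and with its paralog *TRIM16L*, which had 632 and 655 counts and a log2 change of -0.05. Summed over the 3 genes the counts were 1978 and 5143, a log2 change of 1.12, still past 2-fold. Relative to *TRIM16L*, *TRIM16* was at a ratio of 1.64 in shCtrl and 5.28 in shESE1.

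The thioredoxin branch was represented by *TXNRD1* (ENSG00000198431, chromosome 12, 104215779 to 104350307, plus strand), which encodes the cytosolic selenoprotein that reduces thioredoxin, and *SRXN1* (ENSG00000271303, chromosome 20, 646615 to 653200, minus strand), which encodes sulfiredoxin, the enzyme that repairs over-oxidized peroxiredoxins. *TXNRD1* had 2670 counts in shCtrl and 4490 in shESE1, or 5.90 and 9.11 FPKM, 1.54-fold higher with a log2 change of 0.55 and an interval of 0.56 to 0.70. *SRXN1* had 3286 and 5156 counts, or 19.3 and 27.8 FPKM, 1.44-fold higher with a log2 change of 0.50 and an interval of 0.46 to 0.59. Both values were higher in shESE1 and neither reached 2-fold. Of the compared genes, 13.5% had a higher change than *TXNRD1* and 15.8% a higher change than *SRXN1*. The ratio of *SRXN1* to *TXNRD1* was 3.27 in shCtrl and 3.05 in shESE1, a log2 change of -0.10 with an interval of -0.19 to -0.01. *SRXN1* shares 84.2% of its sequence with the overlapping gene *AL121758*, which had 0 and 6 counts, and its summed log2 change was 0.51. The pseudogene *RPL18AP3* lies in an intron of *TXNRD1* on the same strand with 5194 and 6826 counts, but shares 0 exon bases with it.

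*NQO1* (ENSG00000181019, chromosome 16, 69706996 to 69726668, minus strand), the cytosolic quinone reductase often used as the reference readout of NRF2, was the most abundant of the 9 genes in both libraries. It had 9502 counts and 47.5 FPKM in shCtrl and 10327 counts and 47.4 FPKM in shESE1. The ratio of the levels was 0.997, with an interval of the log2 change of -0.04 to 0.04, and the sign of the change varied with the scaling, from -0.14 with mitochondrial genes left out to 0.26 on the TPM scale. *NQO1* was above 94.0% of the expressed genes in shCtrl and above 92.1% in shESE1. Set against *NQO1* within each library, *NFE2L2* was 2.20-fold higher in shESE1, *TRIM16* 3.08-fold, *TXNRD1* 1.55-fold, *KEAP1* 1.48-fold and *SRXN1* 1.44-fold. The same ratio to *NQO1* was 1.06 times its shCtrl value in shESE1 for *GCLM*, with a log2 interval of -0.02 to 0.19, 0.887 times for *GCLC* (-0.27 to -0.08) and 0.731 times for *HMOX1* (-0.87 to -0.03).

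Glutathione synthesis was represented by *GCLC* (ENSG00000001084, chromosome 6, 53497341 to 53616970, minus strand) and *GCLM* (ENSG00000023909, chromosome 1, 93885199 to 93909456, minus strand), the catalytic and the modifier subunit of glutamate-cysteine ligase, the rate-limiting enzyme. *GCLC* had 2307 counts and 3.97 FPKM in shCtrl and 2226 counts and 3.51 FPKM in shESE1, a log2 change of -0.14 with an interval of -0.26 to -0.09. *GCLM* had 1565 and 1805 counts, or 4.28 and 4.53 FPKM, a log2 change of 0.07 with an interval of -0.02 to 0.18. The subunits had opposite signs, although *GCLC* became positive at 0.08 on the TPM scale and *GCLM* negative at -0.04 with mitochondrial genes left out. The ratio of modifier to catalytic subunit, which rescaling a whole library does not alter, was 1.08 in shCtrl and 1.29 in shESE1. The interval of its log2 change was 0.13 to 0.39. Removal of the length and GC trend, which acts gene by gene, gave log2 changes of 0.24 for *GCLM* and -0.07 for *GCLC*.

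*HMOX1* (ENSG00000100292, chromosome 22, 35380361 to 35390293, plus strand), which encodes the inducible heme oxygenase and is the textbook example of a gene repressed by BACH1, was the lowest of the 9. It had 104 counts and 0.662 FPKM in shCtrl and 83 counts and 0.482 FPKM in shESE1. Without the added 1 it was 1.37-fold lower, with a log2 interval of -0.89 to -0.03, which at this depth spans nearly the whole range between 2-fold lower and equal. It was below 1 FPKM in both libraries and enters none of the counts above.

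**Figure D2:**
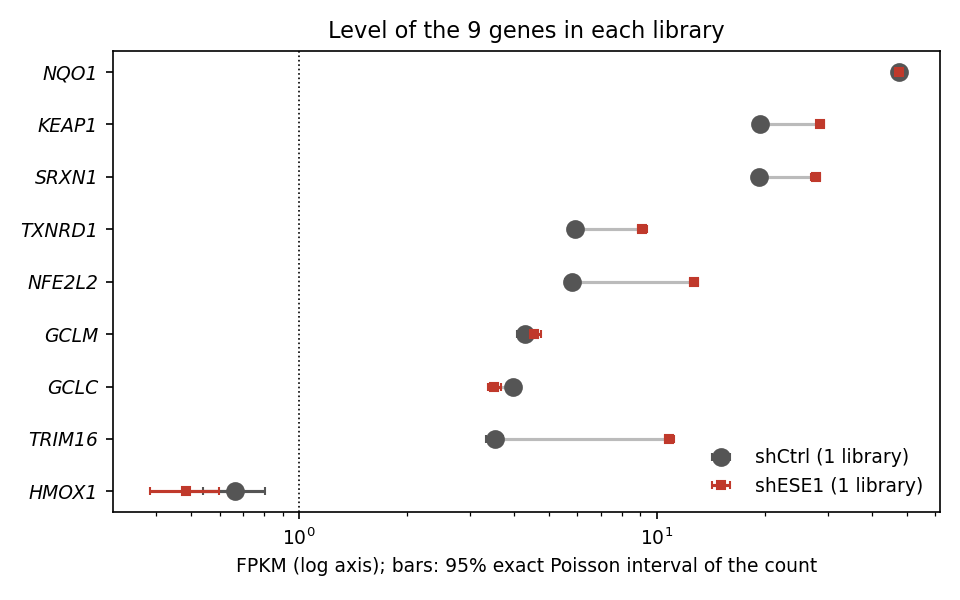
FPKM of the 9 genes in the shCtrl and the shESE1 library on a log axis, 1 library each, with 95% exact Poisson bars that cover counting error only. *NQO1* is highest in both libraries, *TRIM16* and *NFE2L2* show the widest gaps between libraries, and *HMOX1* lies under 1 FPKM in both.

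In shCtrl the order of levels per length was *NQO1*, *KEAP1*, *SRXN1*, *TXNRD1*, *NFE2L2*, *GCLM*, *GCLC*, *TRIM16* and *HMOX1*. The counting intervals of 3 neighbouring pairs overlapped: *KEAP1* with *SRXN1*, *TXNRD1* with *NFE2L2*, and *GCLM* with *GCLC*. In shESE1 *NFE2L2* and *TRIM16* stood above *TXNRD1*, at 12.3 to 13.0 FPKM and 10.5 to 11.2 FPKM against 8.85 to 9.38 FPKM, whereas *KEAP1* and *SRXN1* again overlapped. *TRIM16* passed *GCLC*, *GCLM* and *TXNRD1* in this order.

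The changes depended on the scaling. Over 9 settings of pseudocount, scaling and length and GC trend, the median change of all compared genes itself moved between -0.10 and 0.20. Relative to that median, *TRIM16* lay at 0.88 to 1.62, *NFE2L2* at 0.70 to 1.16, *TXNRD1* at 0.36 to 0.66, *KEAP1* at 0.38 to 0.62 and *SRXN1* at 0.42 to 0.58. *NQO1* lay at -0.04 to 0.06, *GCLM* at 0.03 to 0.22 and *GCLC* at -0.20 to -0.09. *NFE2L2* stayed at 2-fold or more in 6 of the 9 settings and *TRIM16* in 8 of 9. The mitochondrial share differed between the libraries beside these changes, and with those genes left out of the totals *TRIM16* was the only one of the 9 at 2-fold or more.

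**Figure D3:**
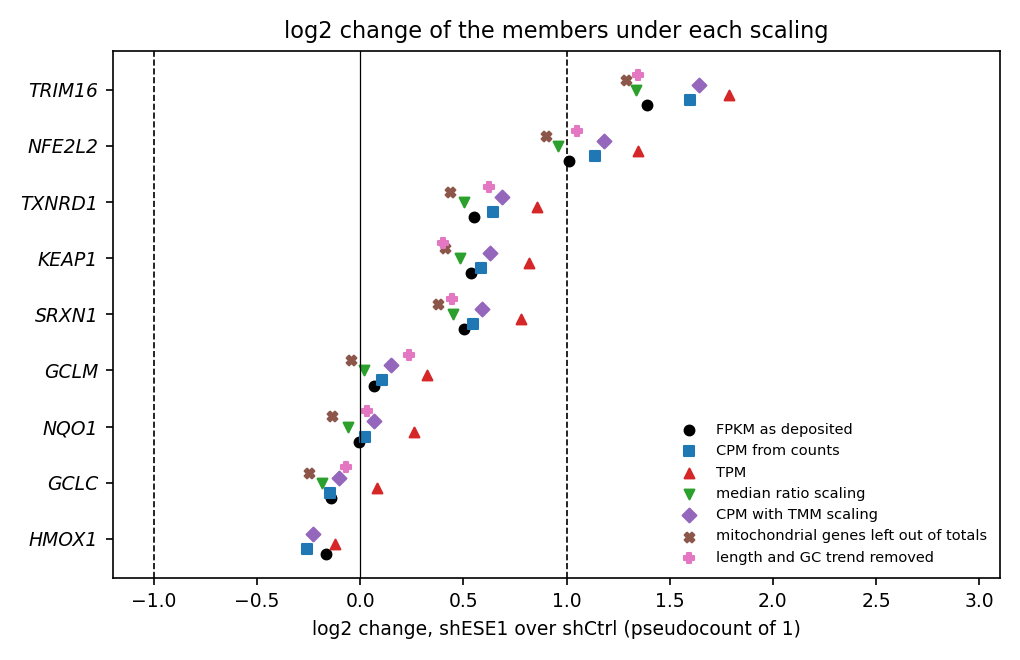
log2 change of the 9 genes, shESE1 over shCtrl, under 7 scalings with a pseudocount of 1, where dashed lines mark 2-fold. *HMOX1* is drawn for the FPKM as deposited, where it was under 1, and otherwise only where it reached the minimum of 1. *TRIM16* stays to the right of the upper line, *NFE2L2* falls on both sides of it, and *NQO1*, *GCLM* and *GCLC* fall on both sides of 0.

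Among the proteins that hold or release NRF2, *RBX1*, the RING subunit of the KEAP1 ligase, and *DPP3*, a peptidase that competes for KEAP1, were at least 2-fold higher, 2 of 12 measured genes, and 0 were lower. Among all compared genes 3.14% were at least 2-fold higher and 3.26% at least 2-fold lower. The list, which includes *KEAP1*, had a median log2 change of 0.31, between 0.16 and 0.61 over the settings. *RBX1* was at 11.5 FPKM in shCtrl and 24.5 FPKM in shESE1 (log2 change 1.03), and *DPP3* at 9.59 and 20.5 FPKM (1.02). Both lie at the 2-fold line, which they reached in 6 and 5 of the 9 settings. *SQSTM1*, the autophagy receptor p62 that sequesters KEAP1, was just under it with 41.4 and 82.6 FPKM (0.98), as was *PGAM5*, a mitochondrial phosphatase bound by KEAP1, with 13.9 and 28.3 FPKM (0.98). The scaffold *CUL3*, which joins KEAP1 to RBX1, had 4.84 and 4.12 FPKM (-0.19). The cullin exchange factor *CAND1* had a log2 change of 0.12, and *PALB2* and *AMER1*, whose proteins can bind KEAP1, had -0.22 and 0.37. Of the genes of KEAP1-independent NRF2 turnover, *GSK3B* had -0.05, *BTRC* 0.25 and *SYVN1* -0.28.

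Of the factors that compete or pair with NRF2 at the DNA, *BACH1* and *MAFF* were at least 2-fold lower. *BACH1*, the repressor that competes for the same elements, had 2450 counts and 4.75 FPKM in shCtrl and 994 counts and 1.77 FPKM in shESE1, 2.69-fold lower (log2 change -1.05, interval -1.53 to -1.32). *MAFF*, a small MAF protein, had 1871 counts and 4.95 FPKM in shCtrl and 487 counts and 1.18 FPKM in shESE1, 4.21-fold lower (-1.45, interval -2.22 to -1.93). *BACH1* reached 2-fold in 7 of the 9 settings and *MAFF* in 8. The other small MAF genes *MAFG* and *MAFK* had log2 changes of 0.05 and 0.11, and the NRF2 relatives *NFE2L1* and *NFE2L3* had 0.15 and -0.23. *NFE2* and *BACH2* were under 1 FPKM.

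The ratio of *NFE2L2* to *BACH1* transcript was 1.22 in shCtrl and 7.18 in shESE1, 5.89-fold higher, with an interval of the log2 change of 2.43 to 2.69. The ratio of *NFE2L2* to *MAFF* was 1.17 and 10.8. *HMOX1*, the gene on which BACH1 is best known to act, was at the levels given above.

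**Figure D4:**
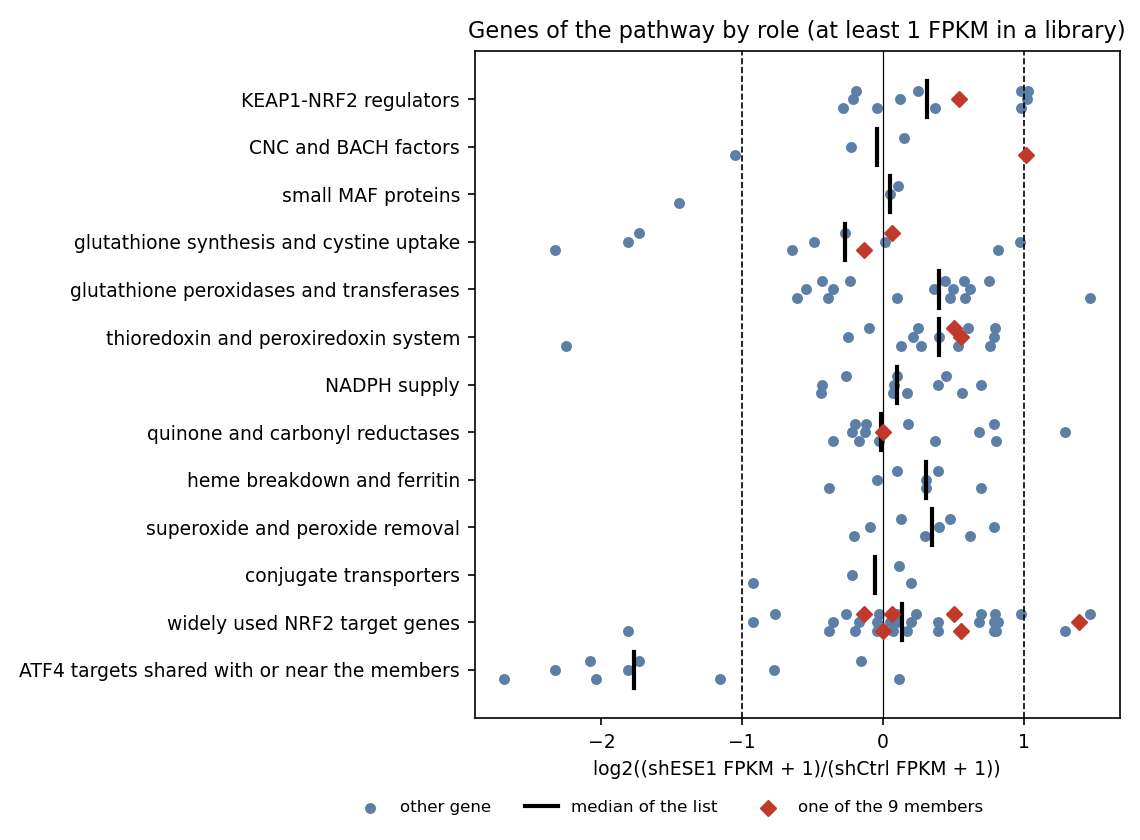
log2 change, shESE1 over shCtrl with 1 FPKM added, of every gene with at least 1 FPKM in a library, by list. Red diamonds are among the 9 genes, blue circles are the other genes, bars are list medians and dashed lines mark 2-fold. The median of the ATF4 list lies at -1.77, and the other medians lie between -0.27 and 0.40.

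In the list of glutathione synthesis and cystine uptake, which also holds genes of glutathione breakdown, 3 of 11 measured genes were lower by 2-fold or more and 0 were higher. Among all compared genes 3.26% were lower. The median log2 change was -0.27, between -0.41 and -0.01 over the 9 settings and -0.49 with at least 5 FPKM required. Over the 9 genes left without *GCLC* and *GCLM* it was -0.49. The cystine transporter *SLC7A11* had 9846 counts and 15.2 FPKM in shCtrl and 2553 counts and 3.61 FPKM in shESE1, 4.20-fold lower (-1.81). *CTH*, which makes cysteine from cystathionine, was at 25.3 and 4.23 FPKM (-2.33), and *CHAC1*, which breaks glutathione down, at 15.2 and 3.88 FPKM (-1.73). *CHAC2*, a second glutathione-degrading enzyme, was at 7.47 and 15.6 FPKM (0.97). It lies near the 2-fold line: it was 2.09-fold higher without the added 1 and reached 2-fold in 5 of the 9 settings.

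Among glutathione peroxidases and transferases 1 of 16 measured genes was at least 2-fold higher and 0 were lower. The shares of all compared genes were 3.14% higher and 3.26% lower. The median of the list was 0.40, between 0.26 and 0.63 over the settings and 0.23 with no filter on low values. The higher gene was *GPX2*, the gastrointestinal glutathione peroxidase, with 596 counts and 5.90 FPKM in shCtrl and 1995 counts and 18.1 FPKM in shESE1, 3.07-fold higher (1.47, interval 1.49 to 1.75), and it stayed past 2-fold in all 9 settings. *MGST3* had a log2 change of 0.75, *GPX1* of 0.62 and *GSTA4* of -0.61.

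In the thioredoxin and peroxiredoxin system 12 of 15 genes had positive values, beside 6451 of the 12520 compared genes. The median was 0.40 (0.26 to 0.66 over the settings), and 0.27 over the 13 genes left without *TXNRD1* and *SRXN1*. In the list 0 genes were at least 2-fold higher and 1 was lower, beside 3.14% and 3.26% of all compared genes. The exception was *TXNIP*, the inhibitor that binds reduced thioredoxin, at 93.8 FPKM in shCtrl and 18.9 FPKM in shESE1, 4.96-fold lower (-2.25). *TXN*, thioredoxin itself, was at 240 and 417 FPKM (0.80), and the peroxiredoxins *PRDX1* and *PRDX2* had 0.79 and 0.76. Summed over *PRDX1* to *PRDX6*, the counts were 118928 and 185694, 1.46-fold higher as a share of all counts.

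The remaining enzyme lists held 1 gene past 2-fold, where 6.4% of all compared genes were past it in either direction. Of 14 measured quinone and carbonyl reductases *AKR1C2* was higher, with 302 counts and 0.693 FPKM in shCtrl and 1492 counts and 3.15 FPKM in shESE1 (1.29), and the median was -0.02, with a sign that varied with the scaling (-0.15 to 0.26). Its close paralogs can exchange reads with it. Summed over *AKR1C1*, *AKR1C2* and *AKR1C3* the counts were 925 and 2945, 2.98-fold higher as a share of all counts with a log2 interval of 1.47 to 1.68. *CBR1*, *AKR1C3* and *CBR3* had log2 changes of 0.80, 0.78 and 0.68.

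None of the 11 NADPH supply genes (median 0.10), the 7 measured heme and ferritin genes (0.30), the 8 measured superoxide and peroxide genes (0.35) or the 4 measured conjugate transporters (-0.06) reached 2-fold in either direction with 1 FPKM added, and the medians for NADPH supply and for conjugate transporters were negative under some scalings and positive under others. Among the values farthest from 0 were 0.69 for the constitutive heme oxygenase *HMOX2*, 0.79 for *PRDX1* and -0.92 for the transporter *ABCC3*. *ABCC3* was at 4.05 FPKM in shCtrl and 1.67 FPKM in shESE1, with an interval of -1.38 to -1.18 without the added 1, and it was at least 2-fold lower in 4 of the 9 settings. In these lists *MTHFD1* had 0.56, *IDH1* -0.44, *RPIA* 0.44, the ferritin chains *FTL* and *FTH1* 0.39 and -0.38, *FECH* 0.30, *GPX4* 0.47, *PRDX6* 0.40, *ABCC1* -0.22, *ABCB6* 0.19 and *ABCC5* 0.11.

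Over 42 genes widely used as NRF2 targets, 36 were measured. Of these, 3 were at least 2-fold higher (*TRIM16*, *GPX2* and *AKR1C2*) and 1 was at least 2-fold lower (*SLC7A11*). The shares of all compared genes were 3.14% higher and 3.26% lower. The median of the 36 was 0.14 (0.01 to 0.37 over the settings). It was also 0.14 over the 30 genes left without those among the 9 genes. Of the 36, 23 had positive values, as did 6451 of the 12520 compared genes. *SLC7A11* is also a target of ATF4, the transcription factor of the amino acid and stress response. A further list held 10 genes, *ATF4* and 9 of its targets. Of these, 7 were lower by 2-fold or more and 0 were higher, beside 3.26% and 3.14% of all compared genes. The median of this list was -1.77. The 7 lower genes were *NUPR1* (-2.69), *CTH* (-2.33), the pseudokinase *TRIB3* (-2.08), asparagine synthetase *ASNS* (-2.04), *SLC7A11* (-1.81), *CHAC1* (-1.73) and *SESN2* (-1.16). The others were *ATF4* (-0.77), *DDIT3* (-0.16) and *ATF3* (0.11).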

How the data were processed

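Poly(A) RNA of 1 shCtrl and 1 shESE1 culture was sequenced. For each gene the authors deposited an FPKM value, in which genes without reads hold a small constant, set here to 0, and an unnormalized whole-number count per gene. Named in the submitters' processing notes are StringTie, HISAT2 and fastp, with builds mm10 and GRCh38. Versions, roles, the tool for counting and its use of strand were not given in the sources used here. Positions are on GRCh38.

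The 9 genes and all lists were chosen with earlier results of these data known. Named were the 9 genes, *ELF3*, genes sharing sequence with them, all measured KEAP1-NRF2 regulators, CNC and BACH factors and small MAF genes, and from each other list up to 4 genes with the largest change and any past 2-fold. Not every gene this rule names is reported here. Genes with at least 1 FPKM in 1 library were compared. With 1 library per condition no test was run. Shared sequence was counted in 100-base words every 10 bases of GENCODE 29 transcripts. The calculation was tested on simulated data.

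Alternatives were pseudocounts of 0.1 and 5, other filters, fold thresholds and scalings, and removal of a length and GC trend, which was chosen after seeing the data. Python 3.11.15, numpy 2.4.6, scipy 1.17.1, pandas 2.3.3, matplotlib 3.10.9 and, for TMM scaling only, edgeR 4.0.16 in R 4.3.3 were used.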

Additional observations from a re-analysis of the deposited data

How the results depend on the processing

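No paired analysis was possible because each condition had 1 library, and for the same reason no library could be left out. None of the 9 genes was at least 2-fold lower under any alternative. The number at least 2-fold higher, 2 as reported, was 1 with median ratio scaling, 1 with mitochondrial genes left out and 0 with a pseudocount of 5 or a threshold of 4-fold. The median of the compared members, 0.52 as reported, was 0.40 with a pseudocount of 5, 0.78 as TPM, 0.39 with mitochondrial genes left out and 0.42 after removal of the trend with length and GC. Of all genes, 408 lower and 393 higher as reported, 958 and 644 were past 2-fold with a pseudocount of 0.1, 110 and 142 with a pseudocount of 5, 1021 and 622 as CPM, 873 and 1432 as TPM, 945 and 686 as CPM with TMM scaling, and 1444 and 1526 at 1.5-fold or 61 and 31 at 4-fold. With at least 5 FPKM required, 230 genes were lower and 300 higher. With mitochondrial genes left out, 540 genes were lower and 293 higher. The minimum of 1 admits more genes on other scales, 15238 as CPM and 16416 as TPM. Depth limits mainly *HMOX1*, with 104 and 83 counts.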

Other observations

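The following lists were chosen after values of these data had been seen. Of 36 measured genes of the KEGG term glutathione metabolism, 4 were at least 2-fold higher and 1, *CHAC1*, was lower. The shares of all compared genes were 3.14% higher and 3.26% lower. The median log2 change of the 36 genes was 0.13. The higher genes were *GPX2* (1.47), *RRM2*, a subunit of ribonucleotide reductase, at 4.57 FPKM in shCtrl and 20.3 FPKM in shESE1 (1.93), *ODC1*, the entry enzyme of polyamine synthesis, at 28.9 and 71.9 FPKM (1.29), and *SRM*, spermidine synthase, at 20.6 and 46.5 FPKM (1.14). Of these 4, *GPX2* alone acts on glutathione itself.

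Since *TXNRD1* and several glutathione peroxidases encode selenocysteine-containing proteins, the selenoproteins were listed. Of 19 measured selenoprotein genes 15 had positive values, beside 6451 of the 12520 compared genes. With 1 FPKM added, 1 (*GPX2*) was at least 2-fold higher and 0 were lower, beside 3.14% and 3.26% of all compared genes. The median was 0.25, and also 0.25 over the 18 genes left without *TXNRD1*. *SELENOK* had a log2 change of 0.89, *SELENOW* of 0.66 and *SELENOP* of -0.92. *SELENOP* was at 4.16 FPKM in shCtrl and 1.73 FPKM in shESE1, 2.41-fold lower without the added 1 (interval -1.40 to -1.14). The 5 measured factors of selenocysteine insertion ranged from -0.71 for *SEPSECS* to 0.47 for *SEPHS1*, and 0 reached 2-fold with 1 FPKM added. Without it *SEPSECS*, at 2.77 FPKM in shCtrl and 1.31 FPKM in shESE1, was 2.11-fold lower, with an interval of -1.22 to -0.93. Of 15 measured genes of lipid peroxide defence and ferroptosis, *SLC7A11* and *CHAC1* were at least 2-fold lower and 0 were higher. The shares of all compared genes were 3.26% lower and 3.14% higher. The median of the 15 genes was 0.09. *GPX4*, which reduces lipid peroxides, had 0.47, and *ACSL4*, which supplies the lipids that are oxidized, was at 40.6 and 25.8 FPKM (-0.63).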
